A study of Homo sapiens with 9 samples.

Results

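Metabolic serine hydrolases outside the patatin-like, cholinesterase and carboxylesterase families were described across the arrays as possible further targets of organophosphates. The list held 51 genes, chosen by enzyme family and found by the gene name that the scanner files give to each non-control probe. Of these, 50 genes had at least 1 probe, of 32383 gene or transcript names on the array, with 68 of its 42405 probes, and 48 genes with 65 probes passed the filter on low signals, among 29134 tested probes. No probe carried the name ACOT2, and the probe named ACOT1 was read as uncertain because the coding sequences of ACOT1 and ACOT2 are nearly identical. NT2 cells, a human embryonal carcinoma line also written hNT2, were differentiated with 10 µM retinoic acid for 4 days (96 h) in medium with 1 µM paraoxon, with 5 µM mipafox, or with neither. The control cells therefore received retinoic acid as well, and no undifferentiated sample was measured here. Total RNA labelled with Cy3 was hybridized to 9 one-colour Agilent arrays, 3 per treatment, named A, B and C. The series calls them biological replicates and the study's methods call them technical, so p-values measure only the spread between these arrays. The cells are 1 tumour-derived line, which limits them as a model of neural tissue.

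Serine hydrolases cut ester, amide, thioester or peptide bonds with a serine in the active site. Organophosphates such as paraoxon and mipafox phosphorylate that serine, which is how they block acetylcholinesterase in nerve, and many enzymes of the wider family bind them as well. The family includes the hydrolases that make and break down endocannabinoid lipids, the thioesterases that take palmitate off proteins, platelet-activating factor (PAF) acetylhydrolases, lysosomal lipases and carboxypeptidases, and prolyl peptidases. The arrays measured transcripts of these enzymes, not their activity, and in bulk RNA fewer cells of a type and less RNA per cell cannot be told apart.

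Probes of 5 members described below are shown with their hg19 position, because those of PPME1, MGLL, RBBP9 and LYPLA2 gave lower fold changes than a further probe of the same gene and APEH had the smallest p among peptidases with paraoxon, read by 1 probe per gene. Each is a 60-base oligonucleotide in the sense of the transcript, copied from the array files. PPME1 encodes protein phosphatase methylesterase 1, which removes the carboxymethyl group of the catalytic subunit of protein phosphatase 2A, and its brighter probe lies at chr11:73941958-73942017 on the plus strand.
PPME1: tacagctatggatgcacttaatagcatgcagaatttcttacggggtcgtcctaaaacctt
MGLL encodes monoacylglycerol lipase, which breaks down the endocannabinoid 2-arachidonoylglycerol, and its brighter probe spans 2711 bases at chr3:127411122-127413832 on the minus strand, so that it joins sequence on both sides of an intron.
MGLL: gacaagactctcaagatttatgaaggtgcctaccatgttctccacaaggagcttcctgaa
RBBP9 encodes a serine hydrolase first found as a retinoblastoma-binding protein, and its dimmer probe lies at chr20:18470446-18470505 on the minus strand.
RBBP9: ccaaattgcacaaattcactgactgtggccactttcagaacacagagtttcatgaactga
LYPLA2 encodes acyl-protein thioesterase 2, which takes palmitate off proteins, and the most upstream of its 4 probes spans 192 bases at chr1:24120413-24120604 on the plus strand.
LYPLA2: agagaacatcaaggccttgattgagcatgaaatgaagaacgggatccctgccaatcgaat
APEH encodes acylpeptide hydrolase, which frees acetylated amino acids from peptide ends, and its only probe spans 440 bases at chr3:49719361-49719800 on the plus strand.
APEH: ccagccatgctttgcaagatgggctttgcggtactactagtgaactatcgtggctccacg
Every one of these 5 probes has at least 1 forward reading frame without a stop codon over its 60 bases. The spans of the MGLL, LYPLA2 and APEH probes exceed 60 bases, so each covers a junction between exons. No gene model of this build was used, so exon numbers are not given.

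Transcripts of nearly all these enzymes were measured in the differentiating cells. On all 9 arrays 65 of the 68 probes (95.6%) were well above background, against 62.1% of all probes, and no member probe was saturated. The exceptions were both probes of NOTUM, a secreted enzyme that removes the lipid from Wnt proteins, and the probe of ABHD10, a mitochondrial thioesterase, which were not well above background on any array. The 75th percentile of the processed signal ranged from 802 to 1590 between arrays and the share of probes well above background from 65.7% to 73.6%, and signals were expressed as log2 relative to each array's 75th percentile. The labelled cell type was checked with marker lists. All 9 pluripotency genes on the array, 7 of 8 retinoic acid response genes and 6 of 8 neural genes were well above background on every array, but so were 6 of 9 markers of blood, endothelium, muscle and liver, so this detection call is a lenient one. The control arrays and mipafox A shared slide 1, and the paraoxon arrays shared slide 2 with mipafox B and C. No slide held both control and paraoxon arrays, so these comparisons rest on the mipafox arrays to separate slide from treatment.

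No serine hydrolase transcript passed the threshold of the study's methods with either compound, which asks of limma both an adjusted p under 0.05 and a fold change beyond 1 on the log2 scale. With paraoxon, 0 of 65 member probes were called, as were 0% of all 29134 probes. The paper, with its own processing, reported genes altered by paraoxon, and the source of this difference was not tested. An unadjusted p under 0.05 was given by limma for 1 member probe in the higher and 4 in the lower direction, or 7.69% of the members' probes against 13.3% of all probes. The 3 paraoxon arrays lay wholly above the 3 controls for 2 probes and wholly below for 15, or 26.2% against 23.4% of all probes. The direction leaned down, with 46 of 65 probes lower (70.8%, against 48.1% of all probes) and a median log2 fold change of −0.10 against 0.01. With 1 probe per gene, 30 of 48 genes were lower with a median of −0.05, and the share of all genes read in this way was not computed. Without paraoxon C, the array that was the lowest of all 9 at 21 of the 65 probes (32.3%, against 15.3% of all probes), 40 of 65 were lower with a median of −0.04.

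With mipafox, 0 of 65 member probes were called, again as 0% of all probes. Limma gave an unadjusted p under 0.05 for 2 member probes in the higher and 3 in the lower direction, or 7.69% against 6.96% of all probes. The arrays of the groups did not overlap for 4 probes in the higher and 6 in the lower direction, or 15.4% against 11.8% of all probes. The median log2 fold change was −0.07 against 0.001 over all probes, with 41 of 65 probes lower (63.1%, against 49.8%). With slide as a block in the fit, the members' medians were −0.0016 for paraoxon, with 33 of 65 probes lower, and 0.03 for mipafox, with 30 of 65 lower, while the medians of all probes were 0.10 and 0.06. Only mipafox had arrays on both slides, and mipafox A was its only array on slide 1. The mipafox value under this block is therefore mipafox A minus the control mean. The paraoxon value takes its slide term from mipafox A against mipafox B and C, so both rest on 1 array. Read by 1 probe per gene, 16 of 48 genes changed sign with paraoxon and 19 of 48 with mipafox under this block, and the paraoxon values widened to a range from −0.88 to 0.72, with a smallest adjusted p of 0.613 in limma. Array weights in limma, which give less weight to arrays that deviate more, left 0 member probes past both limits while 671 and 800 of all probes passed them. The weights were 4.37 for control B, on slide 1, and 3.33 for paraoxon A and 3.05 for mipafox B, on slide 2. They were 0.39 for control A, 0.40 for mipafox A and 0.28 for mipafox C, so this fit leaned mostly on few arrays. With these weights an adjusted p under 0.05, at any fold change, was reached by 4 of 65 member probes with paraoxon (6.15%, against 13.8% of all probes) and by 12 of 65 with mipafox (18.5%, against 19.8%), the latter including PPME1, DAGLA, DPP9, LIPA and LYPLA2. Both comparisons used the same 3 control arrays, so their directions are not independent of each other.

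The precision set what could be seen. The 95% interval of the log2 fold change had a median half-width of 0.42 over the 48 genes. It stayed within 1 in either direction for 45 of 48 genes in each comparison, and reached that limit for MGLL, PPME1 and SIAE. SIAE, a sialic acid acetylesterase, had the widest spread of these, from −3.29 to −2.25 among the paraoxon arrays and from −2.97 to −1.68 among the mipafox arrays. Both of its groups overlapped the controls, which ran from −2.56 to −2.19. The 95% interval left out 0 for 3 genes with paraoxon (PPME1, ABHD13 and MGLL) and for 2 with mipafox (PPME1 and DAGLA), before any adjustment for the number of probes. All these intervals come from the fit without slide, by 1 probe per gene, so they do not hold the uncertainty about slide. With slide as a block LIPG was at −0.88 ± 0.44 and SCPEP1 at −0.84 ± 0.40 with paraoxon. A dimmer probe could also reach the limit, as the most upstream LYPLA2 probe did with paraoxon (−1.81 to 0.10).

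**Figure D1:**
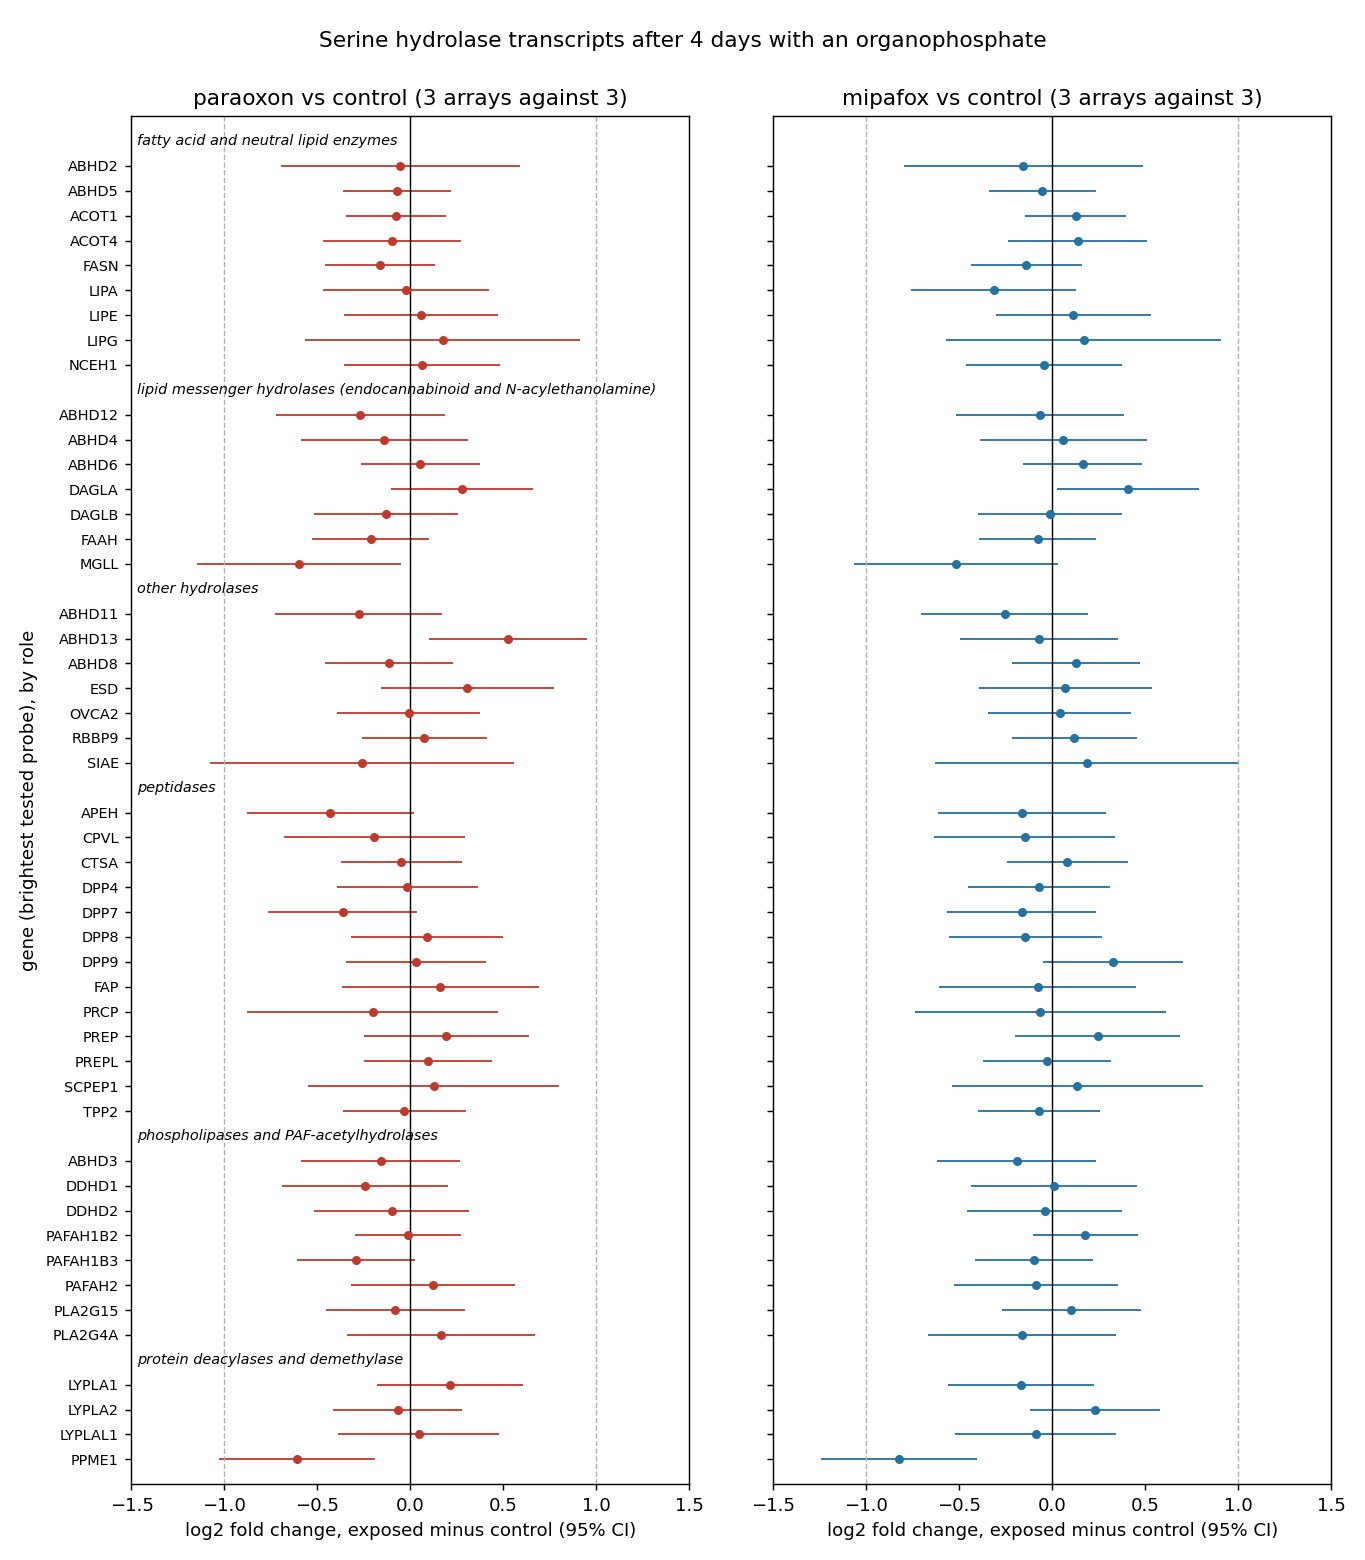
Log2 fold change of the 48 tested members (points, brightest tested probe of each gene) with 95% confidence intervals from limma (lines), for paraoxon (left) and mipafox (right) against control, 3 arrays against 3; dashed lines mark a log2 fold change of 1 in either direction. No point lies beyond these lines, and the intervals of PPME1, MGLL and SIAE reach them. The fit was without slide as a block.

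Among the protein deacylases and the protein demethylase, PPME1 had the smallest unadjusted p of all members in both comparisons. Its brighter probe read −1.57, −2.01 and −2.09 in controls A, B and C, −2.51, −2.65 and −2.35 with paraoxon, and −2.47, −2.77 and −2.91 with mipafox. All 6 exposed arrays therefore lay below all 3 controls. The log2 fold change was −0.61 ± 0.19 (SE, n = 3 against 3, limma adjusted p = 0.199) for paraoxon and −0.82 ± 0.19 (limma adjusted p = 0.344) for mipafox. On slide 1 alone, mipafox A lay 0.58 below the control mean (difference −0.58), and with slide as a block the paraoxon value was −0.24 ± 0.31. The second PPME1 probe, 23042 bases downstream, did not separate the groups. It read −2.27, −2.42 and −2.25 in controls, −2.47, −2.0 and −3.28 with paraoxon, and −2.77, −2.60 and −1.73 with mipafox, and the correlation between both probes over the 9 arrays was −0.15. With slide as a block this second probe was at −0.87 ± 0.61 with paraoxon and −0.45 ± 0.48 with mipafox, so the contrast between the probes depends on the fit.

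The acyl-protein thioesterases also differed between their probes. The brightest LYPLA2 probe, near the downstream end, read 3.73, 3.60 and 3.55 in controls, 3.53, 3.45 and 3.70 with paraoxon, and 4.05, 3.91 and 3.61 with mipafox, with log2 fold changes of −0.07 ± 0.15 and 0.23 ± 0.15 (limma adjusted p = 0.909 and 0.850). The most upstream probe, printed above, read −1.08, −0.97 and −0.91 in controls, −1.41, −1.09 and −3.03 with paraoxon, and −1.36, −1.78 and −1.38 with mipafox. All 6 exposed arrays were below the controls here, by −0.85 ± 0.42 with paraoxon, where array C stood apart, and by −0.52 ± 0.42 with mipafox. The 4 LYPLA2 probes fell into an upstream pair, which correlated over the 9 arrays with r = 0.95, and a downstream pair with r = 0.82, while r between the pairs ran from −0.28 to −0.02. LYPLA1, acyl-protein thioesterase 1, likewise had a probe that was lower with both compounds (−0.48 ± 0.20 and −0.54 ± 0.20, limma adjusted p = 0.336 and 0.615) and a probe 4507 bases further downstream at 0.21 and −0.17. LYPLAL1, a lysophospholipase-like relative, had 1 probe and values of 0.04 and −0.09. With slide as a block its values were 0.65 ± 0.25 with paraoxon and 0.32 ± 0.19 with mipafox.

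Among the hydrolases of lipid messengers, MGLL had the smallest unadjusted p with paraoxon and DAGLA with mipafox, read by 1 probe per gene. With slide as a block the values of this group ran from −0.06 to 0.22 with paraoxon and from −0.14 to 0.33 with mipafox. MGLL read −0.87, −0.79 and −1.31 at its brighter, upstream probe in controls, −1.36, −1.86 and −1.55 with paraoxon, and −1.13, −1.43 and −1.97 with mipafox. The paraoxon arrays lay below every control, and the mipafox arrays overlapped them. The log2 fold change was −0.60 ± 0.24 (limma adjusted p = 0.328) with paraoxon and −0.52 ± 0.24 (limma adjusted p = 0.75) with mipafox, and with slide as a block it was −0.03 ± 0.39 and −0.14 ± 0.31. At the second probe, 3211 bases downstream, the values were −3.31, −3.16 and −3.13 in controls, −3.03, −3.21 and −3.22 with paraoxon, and −2.64, −2.83 and −3.00 with mipafox. There the mipafox arrays lay above every control, by 0.38 ± 0.14 (limma adjusted p = 0.641), and paraoxon was at 0.05 ± 0.14, so no single direction can be given for MGLL.

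DAGLA, diacylglycerol lipase alpha, which makes 2-arachidonoylglycerol, had 1 probe. It read −3.10, −3.13 and −3.00 in controls, −2.96, −2.74 and −2.69 with paraoxon, and −2.74, −2.35 and −2.92 with mipafox. Every exposed array lay above every control. The log2 fold change was 0.28 ± 0.17 (limma adjusted p = 0.544) with paraoxon and 0.41 ± 0.17 (limma adjusted p = 0.696) with mipafox, and mipafox A alone exceeded the control mean on its slide by 0.33. With slide as a block the paraoxon value of DAGLA was 0.17 ± 0.31. DAGLB, the second diacylglycerol lipase, was at −0.13 ± 0.17 and −0.01 ± 0.17. FAAH, which hydrolyses the endocannabinoid anandamide, was lower at both of its probes, by −0.21 ± 0.14 and −0.33 ± 0.17 with paraoxon and by −0.08 ± 0.14 and −0.20 ± 0.17 with mipafox, and at the brighter probe the paraoxon arrays (−4.30, −4.57 and −4.34) lay below the controls (−4.04, −4.27 and −4.26). With slide as a block the brighter FAAH probe was at −0.06 ± 0.24 with paraoxon and 0.02 ± 0.19 with mipafox. The dimmer FAAH probe was then at −0.15 ± 0.30 and −0.08 ± 0.24. ABHD6, which also hydrolyses 2-arachidonoylglycerol, was at 0.05 ± 0.14 with paraoxon and 0.16 ± 0.14 with mipafox. Of the other enzymes of this group, ABHD4, which acts on N-acyl phospholipids, was at −0.14 and 0.06. ABHD12, a lysophosphatidylserine lipase, was at −0.27 ± 0.20 with paraoxon, where array C read −1.85 and arrays A and B read −1.12 and −1.19 beside controls from −1.17 to −1.05, and at −0.07 with mipafox. Over these 7 genes the median log2 fold change was −0.14 with paraoxon and −0.01 with mipafox.

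**Figure D2:**
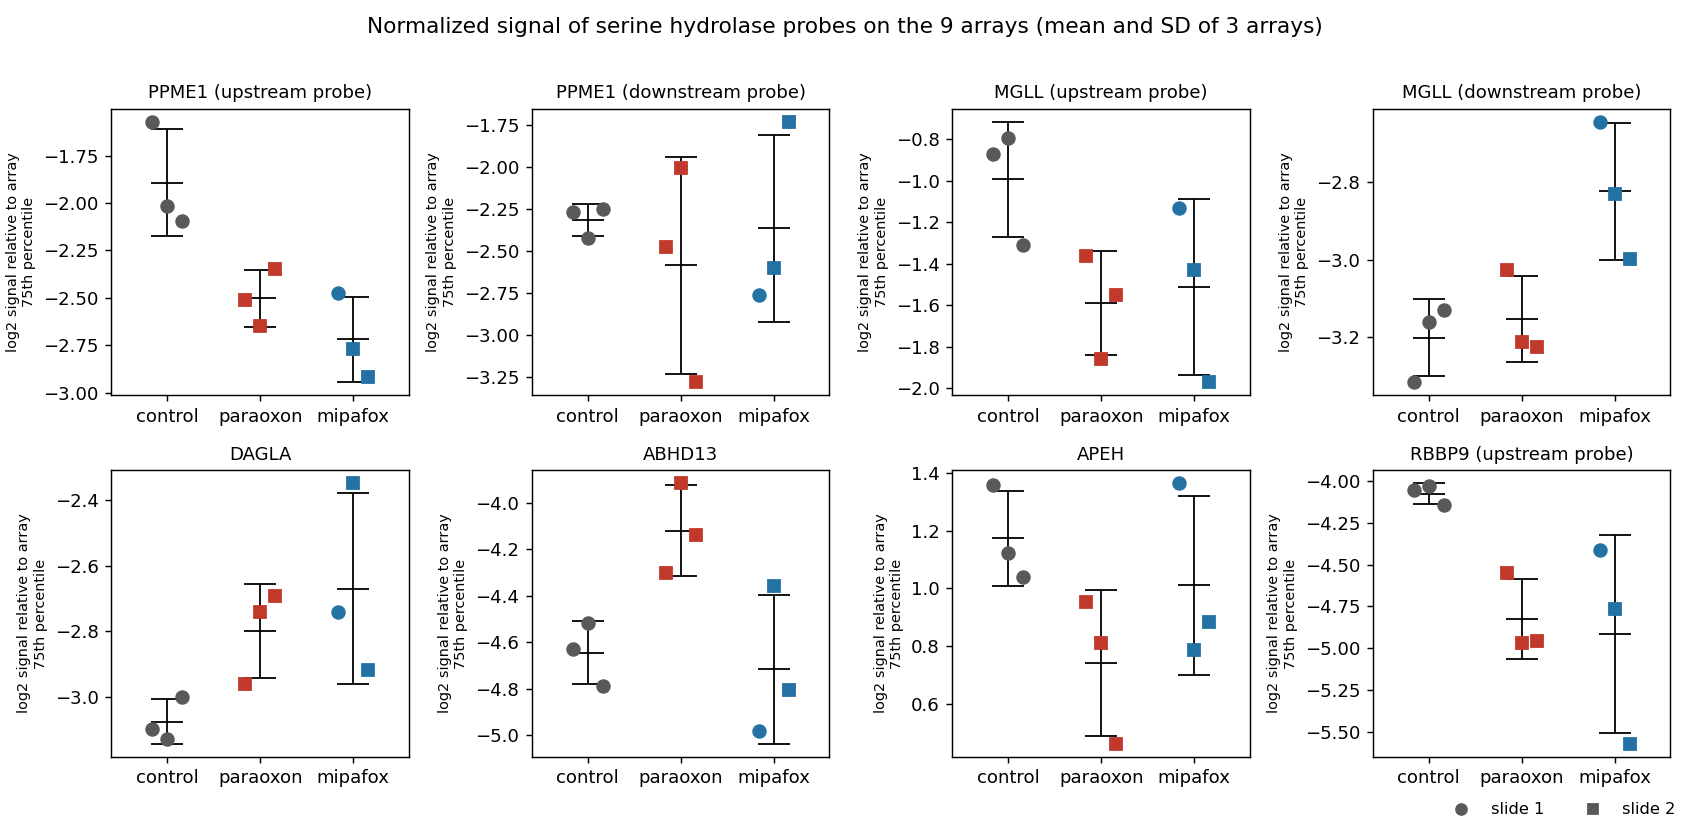
Log2 signal relative to each array's 75th percentile at 8 probes of 6 members, for control, paraoxon and mipafox, with 1 point per array (circles slide 1, squares slide 2) and the mean and SD of 3 arrays; each panel has its own axis. The upstream probe of PPME1 was below every control on all 6 exposed arrays and its downstream probe overlapped the controls, and DAGLA was above every control on all 6.

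ABHD13 and RBBP9 stood out among the hydrolases of other or less known function. ABHD13, a membrane protein whose substrate is poorly defined, read −4.63, −4.52 and −4.79 in controls, −4.30, −3.92 and −4.14 with paraoxon, and −4.98, −4.36 and −4.80 with mipafox. It was the only member whose brightest probe had an unadjusted p under 0.05 in the higher direction with paraoxon, at 0.53 ± 0.19 (limma adjusted p = 0.271), and with slide as a block this value was 0.13 ± 0.31. RBBP9 read −4.05, −4.03 and −4.14 at its dimmer, upstream probe in controls, −4.55, −4.97 and −4.95 with paraoxon, and −4.41, −4.76 and −5.57 with mipafox. All exposed arrays were below all controls, by −0.75 ± 0.27 (limma adjusted p = 0.271) and −0.84 ± 0.27 (limma adjusted p = 0.539). With slide as a block these values of RBBP9 were 0.0067 ± 0.40 and −0.34 ± 0.31. The brighter RBBP9 probe, 2845 bases downstream, was at 0.07 ± 0.15 and 0.12 ± 0.15, with all groups overlapping.

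ABHD11, a mitochondrial hydrolase, was with FAAH and PPME1 one of the members with several probes whose fold changes all had 1 sign with both compounds. Its 3 probes were lower with paraoxon, at −0.28 ± 0.20, −0.38 ± 0.27 and −0.40 ± 0.23, with all paraoxon arrays below all controls at each, and lower with mipafox, at −0.26, −0.32 and −0.42. The brightest read 0.92, 1.11 and 1.14 in controls, 0.71, 0.78 and 0.85 with paraoxon, and 1.25, 0.71 and 0.44 with mipafox. At this probe mipafox A, on the slide of the controls, lay above them. Mipafox B and C were on the slide of the paraoxon arrays, and B lay among these while C lay below them. With slide as a block the brightest probe was at 0.39 ± 0.24 with paraoxon and 0.19 ± 0.19 with mipafox, so the direction of ABHD11 turned. ESD, esterase D or S-formylglutathione hydrolase, was at 0.31 ± 0.21 with paraoxon (limma adjusted p = 0.591) and 0.07 with mipafox, and with slide as a block the paraoxon value was −0.23 ± 0.31. The other hydrolases here, ABHD8 and OVCA2, were at −0.12 and −0.01 with paraoxon and at 0.13 and 0.04 with mipafox.

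The 13 peptidases had median log2 fold changes of −0.02 for paraoxon and −0.07 for mipafox, with 6 and 4 genes higher. At the brightest probes, values ran from −0.43 to 0.19 with paraoxon and from −0.16 to 0.33 with mipafox. With slide as a block the peptidases ran from −0.84 to 0.72 and from −0.51 to 0.55. Read by 1 probe per gene, APEH had the smallest p among them with paraoxon. It read 1.36, 1.12 and 1.04 in controls, 0.95, 0.81 and 0.46 with paraoxon, and 1.36, 0.78 and 0.88 with mipafox, which gave −0.43 ± 0.20 (limma adjusted p = 0.397) and −0.16 ± 0.20. Its mipafox A value was level with control A, the highest control, and with slide as a block the paraoxon value was 0.10 ± 0.30. DPP7, a lysosomal dipeptidyl peptidase, read 1.37, 0.96 and 1.06 in controls, 0.88, 0.94 and 0.47 with paraoxon, and 1.11, 0.82 and 0.96 with mipafox. The paraoxon arrays lay below every control, by −0.36 ± 0.18 (limma adjusted p = 0.423), with array C lowest.

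DPP9, a cytosolic dipeptidyl peptidase of the inflammasome checkpoint, had the smallest p of this group with mipafox, at 0.33 ± 0.17 (limma adjusted p = 0.790). Its brighter probe read 0.53, 0.37 and 0.37 in controls, 0.89, 0.90 and 0.46 with mipafox, and 0.49, 0.25 and 0.62 with paraoxon. At the other DPP9 probe, 1340 bases upstream, paraoxon was at −0.54 ± 0.25 and mipafox at −0.09 ± 0.25. PREP, prolyl oligopeptidase, a peptidase known to bind organophosphates, was at 0.19 ± 0.20 with paraoxon and 0.24 ± 0.20 with mipafox at its brighter probe. The upstream PREP probe was at −0.0057 ± 0.30 and 0.17 ± 0.30. With slide as a block the brighter PREP probe was at −0.19 ± 0.33 and −0.01 ± 0.26, and the upstream one at −0.80 ± 0.47 and −0.36 ± 0.37. Its relative PREPL was at 0.10 and −0.03 at the brighter probe and at −0.62 ± 0.67 and −0.42 ± 0.67 at the upstream probe. Of the carboxypeptidases, CTSA, the lysosomal protective protein, was at −0.05 and 0.08 at its brighter probe and at −0.44 and −0.31 at a probe 3920 bases upstream, where paraoxon C read −0.19 and every other array between 0.36 and 0.93. PRCP, a lysosomal prolyl carboxypeptidase, ran from 3.87 to 4.03 in controls but from 3.23 to 4.52 with mipafox, with mipafox A highest. The remaining members of this group, CPVL, DPP4, DPP8, FAP, SCPEP1 and TPP2, overlapped the controls in both comparisons. With slide as a block DPP8 was at 0.63 ± 0.25 with paraoxon and 0.21 ± 0.19 with mipafox.

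Among phospholipases and PAF-acetylhydrolases the catalytic subunits of the brain PAF-acetylhydrolase 1B gave small differences, and neither passed the test. PAFAH1B3 read 2.36, 2.04 and 2.07 in controls, 1.78, 1.83 and 2.0 with paraoxon, and 2.11, 1.98 and 2.10 with mipafox. The paraoxon arrays were below every control, by −0.29 ± 0.14 (limma adjusted p = 0.420). PAFAH1B2 read 2.08, 2.19 and 2.21 in controls, 2.28, 2.11 and 2.05 with paraoxon, and 2.29, 2.34 and 2.39 with mipafox. Here the mipafox arrays were above every control, by 0.18 ± 0.13 (limma adjusted p = 0.857), whereas a second probe was at −0.25 ± 0.26. DDHD1, a phosphatidic acid-preferring phospholipase, had paraoxon arrays from −3.83 to −3.59 below controls from −3.53 to −3.40, at −0.24 ± 0.20, and at −0.78 ± 0.29 with slide as a block. PLA2G15, the lysosomal phospholipase, was at −0.08 ± 0.17 with all paraoxon arrays at or below 1.47 and all controls at or above it, and PLA2G4A, cytosolic phospholipase A2, was at 0.17 ± 0.22. ABHD3, DDHD2 and PAFAH2 overlapped the controls throughout, though with slide as a block DDHD2 was at −0.67 ± 0.24 with paraoxon (limma adjusted p = 0.613) and the upstream PAFAH2 probe at −0.80 ± 0.35 (limma adjusted p = 0.613).

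Among the 9 fatty acid and neutral lipid enzymes no gene had an unadjusted p under 0.05 in limma with either compound. With paraoxon the log2 fold changes ran from −0.16 to 0.18 around a median of −0.06, and with mipafox from −0.32 to 0.17 around −0.04. With slide as a block the paraoxon values ran from −0.88 for LIPG, an endothelial lipase, to 0.61 for LIPA, the latter with an unadjusted p under 0.05 in limma, and the mipafox values from −0.54 to 0.41. FASN, the fatty acid synthase, read 4.01, 3.72 and 3.69 in controls, 3.65, 3.65 and 3.62 with paraoxon, and 3.67, 3.67 and 3.65 with mipafox. All 6 exposed arrays lay below the controls by small amounts, −0.16 ± 0.13 and −0.14 ± 0.13 (limma adjusted p = 0.666 and 0.917). LIPA, lysosomal acid lipase, read 1.35, 1.56 and 1.54 in controls, 1.40, 1.49 and 1.49 with paraoxon, and 1.59, 1.14 and 0.78 with mipafox. Its mipafox value of −0.32 ± 0.20 (limma adjusted p = 0.832) came from arrays B and C, and became 0.11 ± 0.20 with slide as a block. The acyl-CoA thioesterase probe named ACOT1 was at −0.08 ± 0.12 and 0.13 ± 0.12, with mipafox arrays (0.94, 1.04 and 0.94) above controls (0.89, 0.83 and 0.83). LIPE, the hormone-sensitive lipase, was at 0.06 and 0.11, and ABHD2, ABHD5, ACOT4, LIPG and NCEH1 overlapped the controls in both comparisons.

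Where a member had probes at different places of the gene, the upstream probe, nearer the 5′ end by hg19 position and strand, was usually the one that was lower after exposure. Of the 50 genes, 14 had 2 or more tested probes, and the signs of their log2 fold changes differed between probes in 8 of 14 genes with each compound. Over the 21 pairs of probes of the same gene the median correlation across the 9 arrays was 0.14, with 10 pairs below 0. When the most upstream probe was set against the most downstream one, the upstream fold change was the lower of both in 12 of 14 members with paraoxon and in 12 of 14 with mipafox. The exceptions were FAAH in both comparisons, PAFAH1B2 with paraoxon and PAFAH2 with mipafox. This comparison was chosen after the values were seen.

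The same shift was present across the array. Among all 4475 genes with probes at different places, the upstream probe had the lower fold change in 72% with paraoxon and 71.2% with mipafox, with a median difference of −0.20 and −0.16, against −0.36 and −0.39 in the members. On single arrays the members' median of upstream minus downstream signal, relative to the control mean, was 0.22, −0.05 and −0.10 in controls A, B and C, −0.16, −0.30 and −0.70 with paraoxon, and −0.23, −0.53 and −0.28 with mipafox. Over all genes it was 0.07, −0.03 and −0.03 in controls, −0.12, −0.15 and −0.29 with paraoxon, and −0.13, −0.19 and −0.17 with mipafox. Each exposed array thus lay below each control array, including mipafox A, which shared the controls' slide. The exact permutation test over arrays gave p = 0.1 (two-sided) for the all-gene value in each comparison, which is the smallest p that 3 against 3 arrays allow. This p followed from the separation already seen, and both comparisons share the 3 controls, so it adds no support. The part of this shift in the lower values of PPME1, MGLL, RBBP9, LYPLA1 and LYPLA2 was not tested, nor was the part of transcripts that hold 1 probe's sequence and not the other's. When each gene was read by its most downstream probe, 29 of 48 genes were lower with paraoxon and 27 of 48 with mipafox. The share of all genes read in this way was not computed, so these counts have no comparison.

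**Figure D3:**
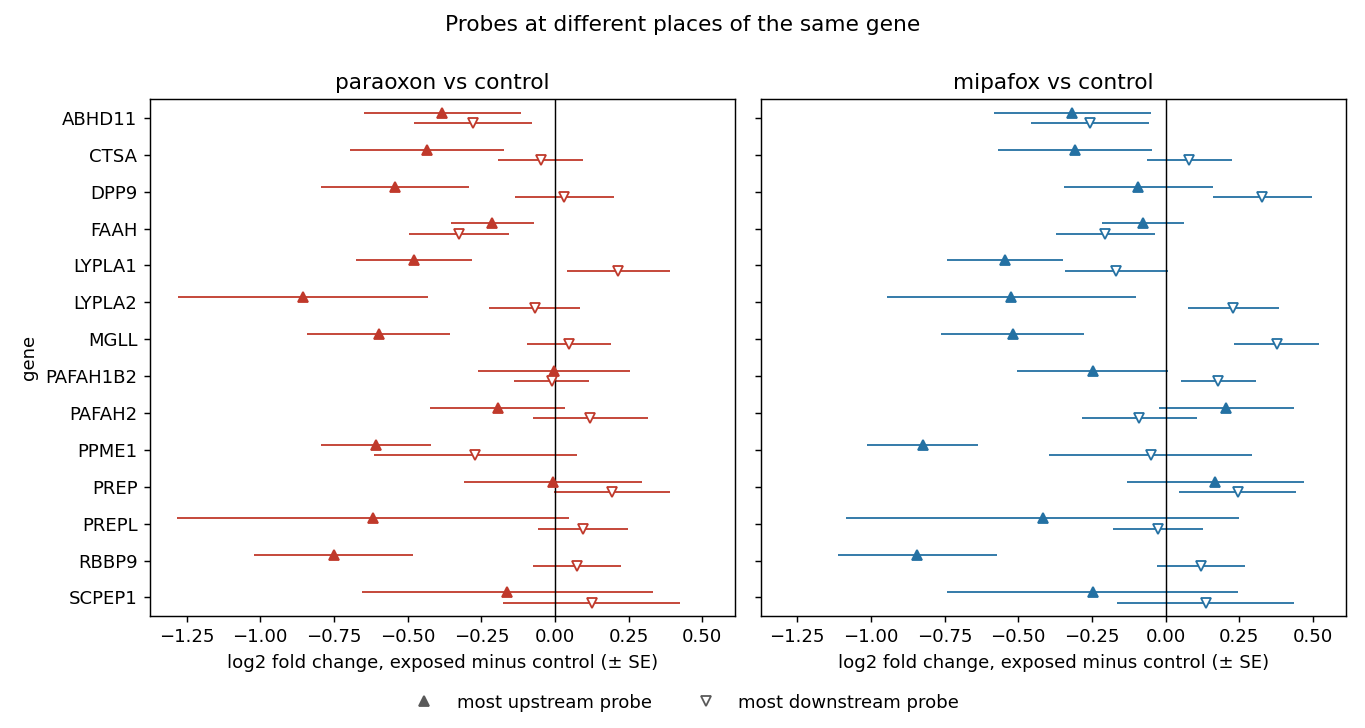
Log2 fold change with its SE for the most upstream (filled) and most downstream (open) tested probe of the 14 members with probes at different places, for paraoxon (left) and mipafox (right) against control. The upstream probe lies to the left of the downstream one in 12 of 14 genes in each panel.

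**Figure D4:**
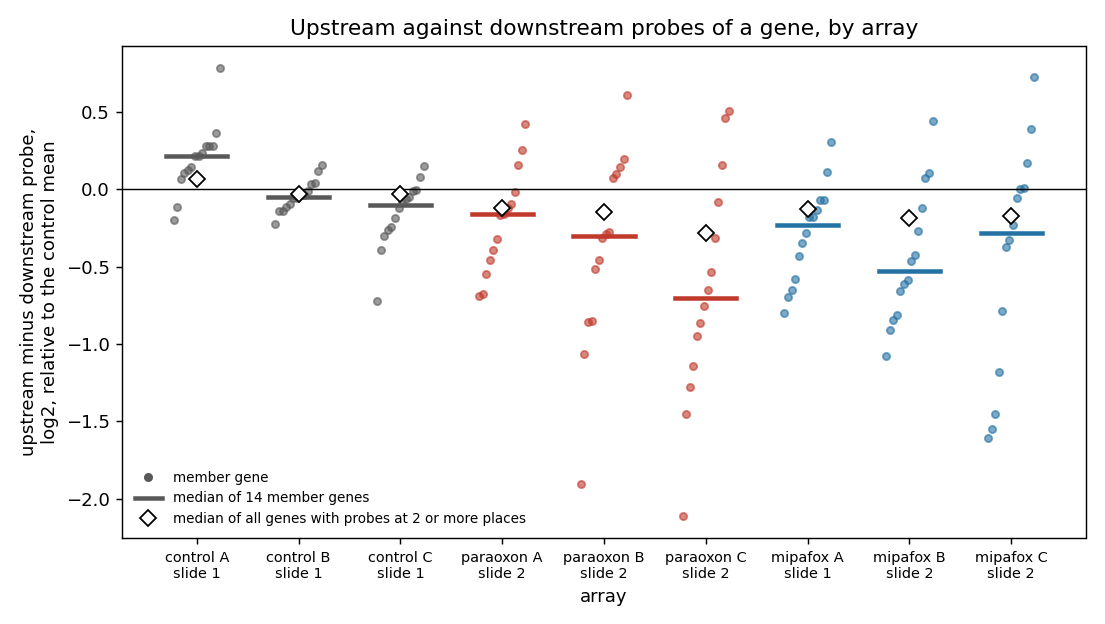
Upstream minus downstream signal (log2) on each array relative to the mean of the 3 controls, with 1 point per member gene, bars at the median of the 14 members and diamonds at the median of all 4475 genes with probes at different places. The medians of all 6 exposed arrays lie below 0, and those of the members are lowest on paraoxon C at −0.70 and mipafox B at −0.53.

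Genes that work with these enzymes were read from 6 lists of partners, and none was called with either compound. Of all tested probes, 13.3% had an unadjusted p under 0.05 in limma with paraoxon and 6.96% with mipafox. In the list of palmitoylation partners, 1 of 22 genes (4.55%) had an unadjusted p under 0.05 with each compound. It was ZDHHC20, a palmitoyltransferase whose reaction the thioesterases reverse, at −1.32 ± 0.11 (SD, n = 3) in controls, −2.33 ± 0.32 with paraoxon and −2.28 ± 0.30 with mipafox. All exposed arrays lay below all controls, with log2 fold changes of −1.0 ± 0.21 (SE, limma adjusted p = 0.0873) and −0.96 ± 0.21 (limma adjusted p = 0.340), and no member came as near the threshold with paraoxon. Values of partner genes are given only from the fit without slide, where control and paraoxon arrays share no slide. Of 11 endocannabinoid partners, 1 was higher and 1 lower at an unadjusted p under 0.05 with paraoxon (18.2%), and 1 was lower with mipafox (9.09%). That with the smallest p was PLCB1, a phospholipase C that supplies diacylglycerol, at −0.47 ± 0.16 with each compound (limma adjusted p = 0.255 and 0.581). Of 27 further serine hydrolases, 1 was lower with paraoxon (3.7%), and 1 was higher and 1 lower with mipafox (7.41%). AFMID, the formamidase of the kynurenine pathway, had the smallest p in both, at −0.47 ± 0.19 and −0.57 ± 0.19 (limma adjusted p = 0.322 and 0.556). Among 18 fatty acid and lipid droplet partners none passed an unadjusted p under 0.05 in limma with paraoxon and 1 did with mipafox (5.56%). It was CIDEC, a lipid droplet protein, at 0.44 ± 0.15 (limma adjusted p = 0.562). No gene did so among 8 partners of the lysosomal sialidase complex or among 13 genes of protein phosphatase 2A methylation and PAF signalling. The list medians ran from −0.07 to 0.06 with paraoxon and from 0.01 to 0.06 with mipafox, beside 0.01 and 0.001 over all probes.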

How the data were processed

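Cy3 signals of total RNA from 9 arrays, 3 per treatment, were used. The authors extracted the deposited scanner intensity values with Agilent Feature Extraction 10.5.1.1, and deposited a second table of log2 values that they made with the Agi4x44PreProcess package, whose background correction and normalization are not given in the sources used here. Here the processed intensity was taken to log2 minus each array's 75th percentile, spots of a probe were averaged and outlier spots were left out. A probe was tested if it was well above background on all 3 arrays of a treatment and had at least 2 values per treatment. Fits over all 29134 probes used limma 3.58.1 in R 4.3.3 with Benjamini-Hochberg adjustment, calling an adjusted p under 0.05 with a log2 fold change beyond 1, as in the study's methods. The script was tested on simulated data. Each member was represented by its brightest tested probe, and the 10 members with the smallest unadjusted p in each comparison were described in full, with other probes where signs differed. Members, lists and partner genes were chosen with earlier results of these data known. Deposited log2 values, normexp, quantile normalization, filters, slide, array weights, a replicate block and left-out arrays were among 23 settings tried, with 1 added later. Figures were drawn with matplotlib 3.10.9. The number of arrays limits the precision.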

Additional observations from a re-analysis of the deposited data

How the results depend on the processing

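No member probe was called in either comparison under any of the 23 settings or the added one, so the count of 0 did not move, while over all probes it rose from 0 to 671 and 800 with array weights, 638 and 246 at an unadjusted p, and 278 for paraoxon with only the treatments compared. Leaving out mipafox A gave 275 probes of all for paraoxon and 78 for mipafox, and leaving out mipafox B gave 77 for paraoxon and mipafox C 1. Slide as a block gave 1 for paraoxon and 6 for mipafox, and the other settings gave 0. The paraoxon median of −0.10 became −0.0519 with 1 probe per gene, −0.0409 with the most downstream probe per gene (added after seeing the data) and −0.0016 with slide as a block, and ran from −0.1256 to −0.0393 when 1 array was left out, the latter without paraoxon C. The mipafox median of −0.07 became −0.0244 with array weights, −0.0098 with normexp background correction and 0.0323 with slide as a block, and ran from −0.0719 to −0.0462 when 1 array was left out. The other settings moved either median by less than the spread between arrays. Of the members described in full, slide as a block turned ABHD11 (0.39), APEH (0.10) and ESD (−0.23) with paraoxon and ABHD11 (0.19), LIPA (0.11) and PREP (−0.0133) with mipafox, and of all 48 members 16 and 19. These block values rest on mipafox A, the only exposed array on slide 1. The most downstream probe turned MGLL, to 0.0471 with paraoxon and 0.38 with mipafox. The cause was not tested. Deviations of same-letter arrays correlated from −0.60 to 0.57. Different-letter arrays were not compared, so these values cannot decide whether the letters A, B and C pair the arrays. With the letter as a replicate block 0 member probes were called, and the medians were −0.10 and −0.07. With 3 arrays per treatment, the unadjusted 95% interval of a member had a median half-width of 0.42, and a call asked for more.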
